A study of Mus musculus with 8 samples.

Results

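The PI4KA membrane complex was examined in mouse liver through 7 genes of the count table, chosen by symbol: Fam126a, Fam126b, Pi4ka, Ttc7, Ttc7b, Efr3a and Efr3b. They are 7 of 46078 genes in the table, and all 7 were among the 14654 that passed the filter on low counts. Fam126a was picked because its level was lower in Rbfox2 KO livers, so its difference between genotypes is described with no test, and its partners were chosen because they belong to the same complex. Livers of 5 WT mice and 3 Rbfox2 KO mice were measured by poly(A) RNA-seq. All mice drank water with 30% (w/v) fructose over 22 weeks, and livers were frozen after fasting. Mice entered the diets at 8 weeks of age and were male unless otherwise stated. Mice of both groups carried loxP-flanked Rbfox2 alleles (Rbfox2 LoxP/LoxP) in the study's account of the line, and the KO group alone carried Alb_cre, so WT here means Cre-negative. That Cre is driven by the albumin promoter, and the study used it to delete Rbfox2 selectively in hepatocytes. The state of the alleles in other liver cells was not examined here. No control diet was part of the comparison. The libraries are bulk tissue, in which fewer cells of a type and less RNA per cell cannot be told apart.

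PI4KA is the lipid kinase that makes phosphatidylinositol 4-phosphate at the plasma membrane. It works in a complex: TTC7 proteins form the scaffold, FAM126 proteins (FAM126A is also called hyccin) stabilise that scaffold, and EFR3 proteins are palmitoylated anchors that hold the kinase at the membrane. TTC7, FAM126 and EFR3 each exist as a pair of paralogues. The lipid they make is the precursor of phosphatidylinositol 4,5-bisphosphate and drives the exchange of sterols and phosphatidylserine by oxysterol-binding proteins. Loss of FAM126A in people causes a disorder of myelin formation with cataract. The deleted gene, Rbfox2, codes for a splicing regulator that binds RNA at UGCAUG.

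Because that word is the known binding motif of the deleted protein, the 7 principal transcripts were searched for TGCATG on the sense strand, and for the shorter GCATG, which lies inside it. The 3′ UTR matches are shown in windows of 26 bases, written 5′ to 3′ along the transcript with the motif in capitals, from the GENCODE transcripts on build GRCm38.
Fam126a 3′ UTR, chr5:23963456-23963481, minus strand: atgagaaagcTGCATGggttgcagag
Fam126b 3′ UTR, chr1:58523093-58523118, minus strand: tatgtactggTGCATGtgagccatta
Efr3a 3′ UTR, chr15:65873100-65873125, plus strand: aggcatgcttTGCATGcaaaggaaaa
Efr3b 3′ UTR, first match, chr12:3964609-3964634, minus strand: cagcatggccTGCATGatctcaggtc
Efr3b 3′ UTR, second match, chr12:3962761-3962786, minus strand: tcaatgtccgTGCATGtgtgtgatgt
Fam126a held 1 match in its transcript of 5659 bases, with 2535 bases of 3′ UTR after it. Pi4ka held 3 matches, of which 2 lie in the coding sequence and 1 runs into the start codon from the 5′ UTR. In the coding sequence, Ttc7, Efr3a and Efr3b each held 1 match. Ttc7b held 0 matches to TGCATG and 3 to GCATG. For comparison, the opposite strand held TGCATG 0 times in Fam126a and Efr3b and 1 time in Pi4ka. It held the motif 2 times in Fam126b and Ttc7b, 3 times in Ttc7 and 5 times in Efr3a. In the last 1000 bases of the transcript, 3 of the 7 members (Fam126b, Efr3a and Efr3b) had TGCATG, as did 26.5% of 18862 coding genes with transcripts of that length. GCATG was in the same window of 4 of 7 members and 59.9% of those genes. The Fam126a match lies outside this window. A match is a run of letters and not a measured binding site, and introns were not searched.

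Total counts ran from 24829693 to 37823155 per library, and 3 counts, taken as the floor, equal 0.0838 to 0.118 CPM, the count relative to library size. CPM are on the TMM scale (edgeR's trimmed mean of M-values) throughout, with factors from 0.821 in WT 3 to 1.28 in Rbfox2 KO 1. Hepatocyte markers, summed over 8 genes, reached 73510 to 81948 CPM in WT and 69975 to 81953 CPM in Rbfox2 KO. Rbfox2 KO 1 stood apart from the other libraries: its 10 pancreatic exocrine markers summed to 429 CPM against 4.78 to 16.2 in the other 7 libraries, its 6 adipocyte markers to 95.7 CPM against 18.4 to 45.1, and major urinary protein (Mup) genes took 6.71% of its counts against 17.9% to 35.5%. Skeletal muscle markers ran from 1.22 to 313 CPM over libraries of both groups. The log2 difference of each member without Rbfox2 KO 1 is given beside its result. Rbfox2 itself was at 13.9, 20.5, 19.0, 17.9 and 23.1 CPM in WT 1 to 5 and at 6.83, 8.61 and 12.4 CPM in Rbfox2 KO 1 to 3. Its groups did not overlap (exact permutation test, two-sided, p = 0.0179, the smallest the 5 and 3 samples allow), and its mean in Rbfox2 KO was 49.0% of WT. Over all genes it passed with DESeq2 (adjusted p = 0.00186) and not with edgeR (adjusted p = 0.328). A count per gene also includes exons outside the loxP sites. In the study's western blot, a measure of protein, RBFOX2 was undetectable in livers of the knockout line. Across all genes, 0 of 14654 (0%) passed an adjusted p of 0.05 with edgeR, and 694 (4.74%) fell under 0.05 before adjustment. With DESeq2, 59 of 14330 genes (0.412%) passed.

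Fam126a, the hyccin gene (ENSMUSG00000028995, chromosome 5 from 23915276 to 24030690, minus strand), had the lower level in Rbfox2 KO for which it was chosen. It was at 10.4, 9.85, 9.09, 8.87 and 10.8 CPM in WT 1 to 5, and at 5.96, 4.75 and 5.09 CPM in Rbfox2 KO 1 to 3. Each Rbfox2 KO liver was below each WT liver, and the WT values lay within 2 CPM of one another. The WT mean was 9.82 ± 0.847 CPM (SD, n = 5) and the Rbfox2 KO mean 5.27 ± 0.621 CPM (SD, n = 3), so Rbfox2 KO reached 53.6% of WT, a log2 difference of -0.90. These values rest on 254 to 367 reads in WT and 121 to 190 reads in Rbfox2 KO. Among all tested genes, 266 (1.82%) had the whole Rbfox2 KO group below the whole WT group. Since Fam126a was picked from this contrast, nothing is read from its place among them.

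The separation of the groups depended on the scaling. With CPM from library totals alone, Fam126a was at 10.4, 9.69, 7.47, 8.52 and 12.3 in WT and at 7.65, 4.49 and 4.81 in Rbfox2 KO. Rbfox2 KO 1 was then above WT 3, the libraries with the lowest and the highest Mup share, and the Rbfox2 KO mean was 58.5% of WT. Without Rbfox2 KO 1, the TMM-scaled log2 difference was -1.002. The part of the other tissues' RNA in Rbfox2 KO 1 in these levels was not tested. No exon base of Fam126a is shared with another annotated gene. None of the 50-base words of its principal transcript occurs in an annotated transcript of another gene. Its exons outside that transcript were not searched in this way. A processed pseudogene, Gm6745, lies in its introns on the same strand and had 343 to 471 reads.

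**Figure D1:**
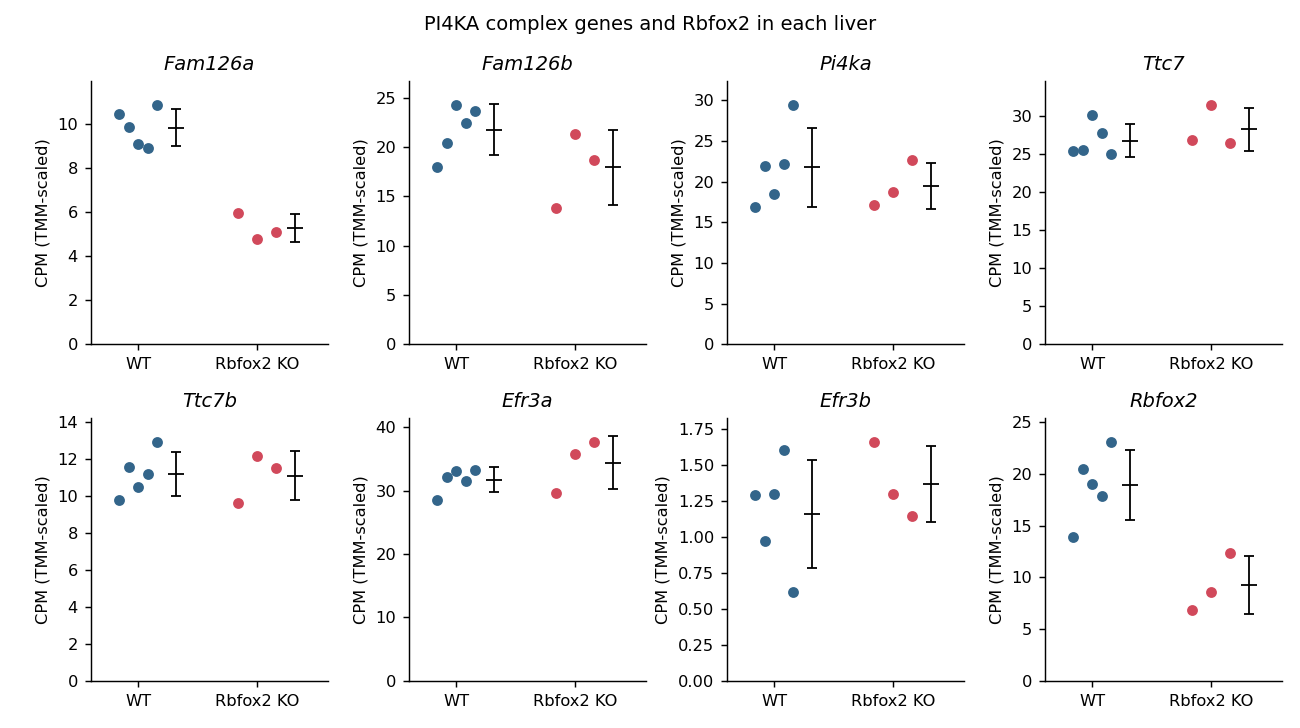
Level of the 7 complex genes and of Rbfox2 in each liver, in TMM-scaled CPM on axes that start at 0, with WT in blue (n = 5), Rbfox2 KO in red (n = 3), and a black bar for mean and SD. On this scale only Fam126a and Rbfox2, the gene picked for its difference and the deleted gene, have groups that do not overlap.

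Fam126b, the paralogue of Fam126a that can take its place in the complex, had lower values in Rbfox2 KO on average but overlapping groups. WT 1 to 5 were at 18.05, 20.5, 24.3, 22.5 and 23.7 CPM. Rbfox2 KO 1 to 3 were at 13.9, 21.3 and 18.7 CPM. The lowest liver was Rbfox2 KO 1, and the other Rbfox2 KO livers lay inside the WT range. The means were 21.8 ± 2.55 CPM (SD, n = 5) and 17.95 ± 3.78 CPM (SD, n = 3). The log2 fold change was -0.28 ± 0.15 (SE; 95% interval -0.61 to 0.05) and did not pass the test (edgeR adjusted p = 0.9999 over 14654 genes; unadjusted p = 0.0896). It was -0.13 without Rbfox2 KO 1 and -0.42 without Rbfox2 KO 2.

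Pi4ka, the catalytic subunit, was at 16.9, 21.9, 18.4, 22.2 and 29.4 CPM in WT 1 to 5. Rbfox2 KO 1 to 3 were at 17.1, 18.8 and 22.6 CPM, all inside the WT range. Its spread among WT livers was wide, with a coefficient of variation of 22.3% against a median of 15.4% over all tested genes, and WT 5 was its highest liver. The log2 fold change was -0.16 ± 0.18 (SE; 95% interval -0.55 to 0.23; edgeR adjusted p = 0.9999). It was -0.08 without Rbfox2 KO 1, -0.02 without WT 5, -0.24 without WT 1 and -0.28 without Rbfox2 KO 3. Of its exon bases, 2.67% are shared with opposite-strand genes. Tmem191c, with 13 to 41 reads, shares 240 bases, and Snap29, with 520 to 748 reads, shares 60. Whether the authors' counting used strand is not given in the sources used here.

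Neither scaffold gene passed the test, and the groups of both overlapped. Ttc7, which encodes TTC7A, was at 25.4, 25.5, 30.1, 27.8 and 24.997 CPM in WT 1 to 5 and at 26.9, 31.5 and 26.4 CPM in Rbfox2 KO 1 to 3. Its log2 fold change was 0.08 ± 0.10 (SE; 95% interval -0.15 to 0.30; edgeR adjusted p = 0.9999), 0.11 without Rbfox2 KO 1 and -0.0065 without Rbfox2 KO 2. Ttc7b, its paralogue, was at 9.78, 11.6, 10.5, 11.2 and 12.9 CPM in WT, and the Rbfox2 KO livers were at 9.62, 12.1 and 11.5 CPM. Its log2 fold change was -0.01 ± 0.12 (SE; 95% interval -0.28 to 0.26; edgeR adjusted p = 0.9999). Without Rbfox2 KO 1 the value of Ttc7b had the other sign, at 0.07.

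The anchor genes had higher means in Rbfox2 KO, with overlapping groups. Efr3a was at 28.5, 32.1, 33.1, 31.5 and 33.2 CPM in WT 1 to 5. Rbfox2 KO 1 to 3 were at 29.7, 35.8 and 37.7 CPM. Rbfox2 KO 2 and 3 were above all WT livers, and Rbfox2 KO 1 was below 4 of 5. Its log2 fold change was 0.12 ± 0.10 (SE; 95% interval -0.11 to 0.34; edgeR adjusted p = 0.9999), 0.21 without Rbfox2 KO 1, 0.08 without WT 1 and 0.05 without Rbfox2 KO 3. Efr3b, the paralogue known from neural tissue, had the fewest reads of the 7 genes, with 21 to 53 per library. It was at 1.29, 0.969, 1.30, 1.61 and 0.620 CPM in WT, and the Rbfox2 KO livers were at 1.66, 1.30 and 1.15 CPM. Its interval was the widest of the 7 genes, with a log2 fold change of 0.25 ± 0.30 (SE; 95% interval -0.42 to 0.91; edgeR adjusted p = 0.9999). It was 0.08 without Rbfox2 KO 1, 0.08 without WT 5 and 0.39 without WT 4, so that single libraries decided its size.

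Of the 6 partners, 0 passed the edgeR test and 0 passed DESeq2, beside backgrounds of 0% and 0.412% of tested genes. None of the 6 had an unadjusted edgeR p under 0.05, beside 4.74% of tested genes. Their values were higher in Rbfox2 KO for 3 and lower for 3, with a median log2 fold change of 0.03 against 0.000964 over all tested genes. None of the 6 had groups that did not overlap, beside 1.82% of tested genes with the whole Rbfox2 KO group below WT and 1.89% with all of it above. A p that misses the threshold does not show equal levels. For Ttc7, Ttc7b and Efr3a the lower bounds of the intervals were -0.15, -0.28 and -0.11, while for Fam126b and Pi4ka they reached -0.61 and -0.55. The interval of Efr3b, the widest, ran from -0.42 to 0.91.

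**Figure D2:**
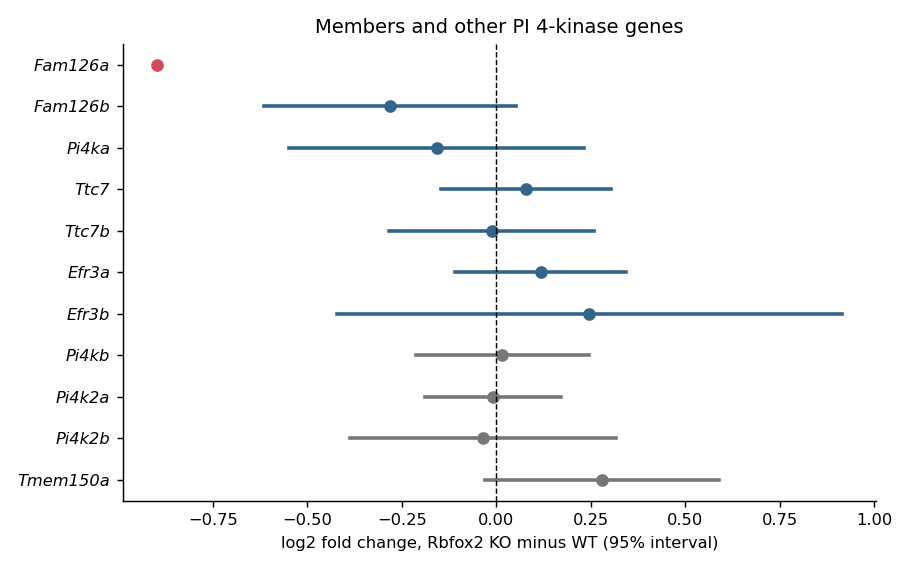
Log2 fold change of Rbfox2 KO over WT (x axis) for the 7 complex genes and for 4 related genes, with 95% intervals from edgeR as lines. Fam126a (red, at -0.90) is drawn with no interval because it was picked for this difference, the 6 partners are blue, the other PI 4-kinases and Tmem150a are grey, and each interval drawn includes 0.

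Ratios of Fam126a to a partner within a library do not depend on the scaling, and they are descriptions, since Fam126a enters each. The ratio of Fam126a to Pi4ka reads was 0.619, 0.449, 0.493, 0.4 and 0.368 in the WT livers, against 0.348, 0.253 and 0.225 in Rbfox2 KO. The ratio to Ttc7 was 0.411, 0.386, 0.302, 0.319 and 0.434 in WT, against 0.222, 0.151 and 0.192 in Rbfox2 KO. The groups did not overlap for either partner, and the same held for the ratios to Ttc7b, Efr3a and Efr3b. These ratios share the numerator picked for its lower level, so they are not separate results. A share of such ratios over all genes was not computed. In Rbfox2 KO the mean ratio was 59.1% of WT against Pi4ka, 50.9% against Ttc7, 54.7% against Ttc7b, 50.2% against Efr3a and 40.4% against Efr3b. The ratio to Fam126b was 67.4% of WT and its groups overlapped: Rbfox2 KO 1, at 0.430, was above WT 3 at 0.374 and WT 4 at 0.395. Fam126b was also at its lowest level in Rbfox2 KO 1. Without that library the ratio to Fam126b was 54.1% of WT.

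**Figure D3:**
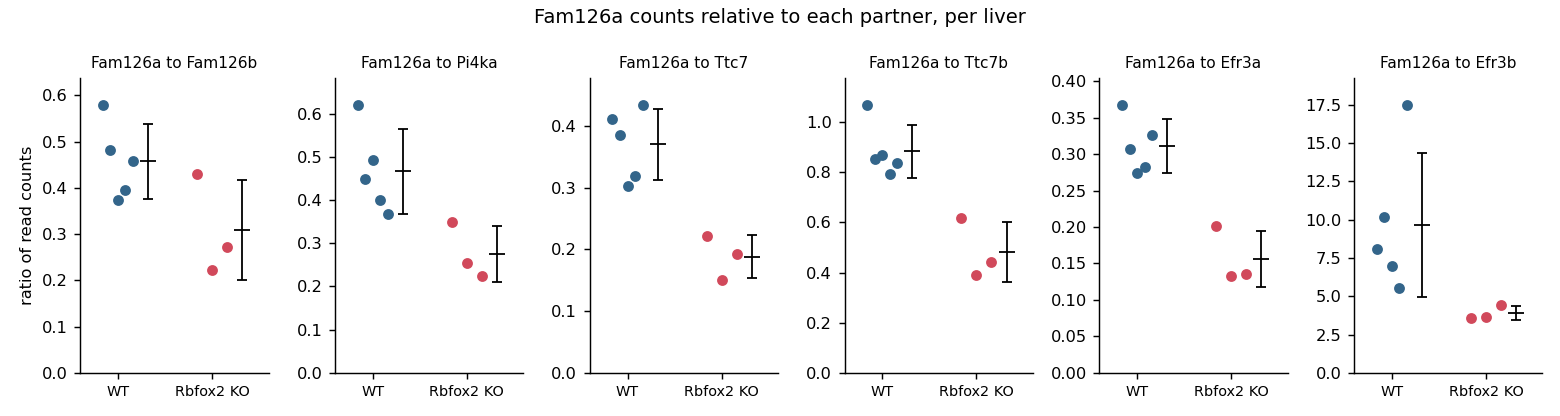
Reads of Fam126a divided by reads of each partner in the same library (y axes start at 0), with WT in blue (n = 5), Rbfox2 KO in red (n = 3), and mean and SD in black. Fam126a, the gene picked for its difference, enters each ratio, so the panels are descriptions. The groups do not overlap in 5 of 6 panels. In the panel for Fam126b the highest Rbfox2 KO liver, at 0.430, lies among the WT livers.

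Within the paralogue pairs, levels were compared per exon length. Fam126a made up 35.1% ± 3.94 (SD, n = 5) of the FAM126 pair in WT, against 26.4% ± 6.65 (SD, n = 3) in Rbfox2 KO, where single livers had 33.8%, 20.99% and 24.5%. The WT livers ran from 30.8% to 40.8%, so Rbfox2 KO 1 fell among them and the other Rbfox2 KO livers below. Ttc7 made up 72.2% ± 3.11 (SD, n = 5) of its pair in WT, against 73.5% ± 1.96 (SD, n = 3) in Rbfox2 KO. Efr3a made up 96.1% ± 1.30 (SD, n = 5) and 95.7% ± 1.34 (SD, n = 3) of its pair. The reads of both FAM126 genes together came to 28.5, 30.3, 33.4, 31.3 and 34.5 CPM in WT, against 19.8, 26.1 and 23.8 CPM in Rbfox2 KO. That sum, on the TMM scale, was 73.4% of WT with no overlap between the groups. Among all tested genes, 1.82% had Rbfox2 KO wholly below WT. Fam126a, picked for its lower level, enters both the share and the sum of its pair, so both are descriptions. No Rbfox2 KO liver had a Fam126b level above the WT range.

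Per kilobase of exon, the order of levels in WT livers was Ttc7 at 3.98 CPM per kb, Efr3a at 2.78, Pi4ka at 1.93, Fam126b at 1.81, Ttc7b at 1.53, Fam126a at 0.971 and Efr3b at 0.111. Pi4ka and Fam126b did not differ beyond their spread, with Pi4ka higher in 3 of 5 WT livers. Ranges also overlapped between Efr3a and Pi4ka and between Fam126b and Ttc7b, although the order held within each of the 5 WT livers under this length. With the length of 1 principal transcript, Efr3a at 6.08 and Ttc7 at 5.80 CPM per kb changed places and overlapped. Ttc7b, at 3.25, was then above Fam126b, at 2.51, in 5 of 5 WT livers with no overlap. Pi4ka at 3.28 and Ttc7b at 3.25 were then neighbours and also overlapped. Under both lengths Fam126a and Efr3b were the lowest of the 7, and Fam126a was below Fam126b in all 5 WT livers. Among WT livers, Efr3a varied least of the 7 genes, with a coefficient of variation of 6.16%, followed by Ttc7 at 8.06% and Fam126a at 8.62%.

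**Figure D4:**
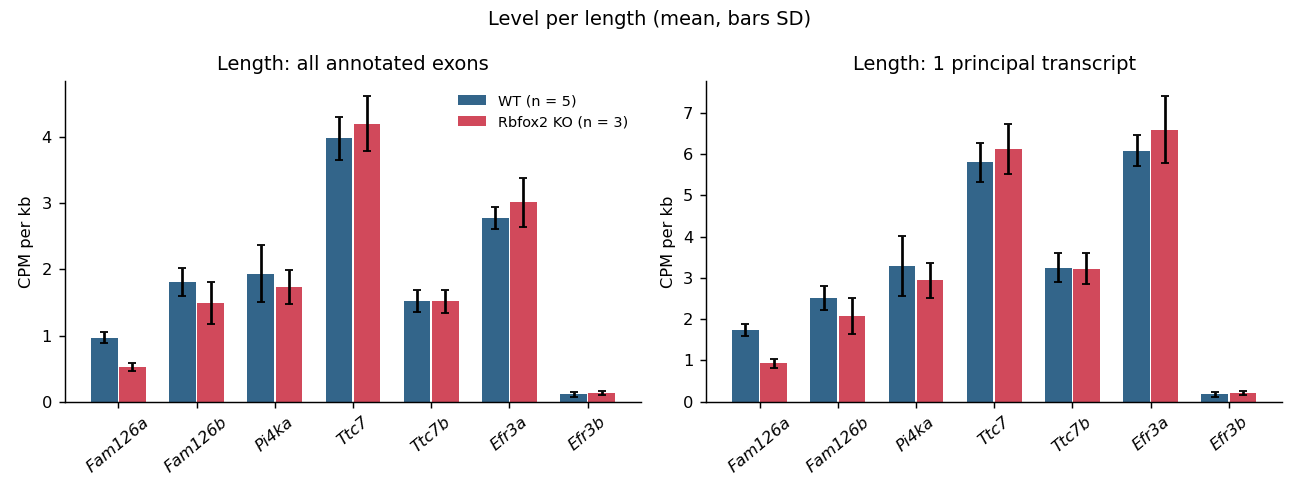
Mean level of the 7 complex genes in CPM per kilobase (bars from 0, error bars SD), with WT in blue (n = 5) and Rbfox2 KO in red (n = 3), by the length of all annotated exons (left) or of 1 principal transcript (right). Ttc7 and Efr3a are the highest 2 under both lengths, and Efr3b is the lowest.

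The genes whose pattern over the 8 libraries was nearest to that of Fam126a, by the root mean square difference of z-scored log2 CPM, were Gm21885 (0.243), Gm43667 (0.320), Gatc (0.357) and Gm21286 (0.359). Gatc encodes a subunit of the mitochondrial glutamyl-tRNA amidotransferase, and its WT mean was 13.0 ± 0.659 CPM (SD, n = 5) against 10.5 ± 0.217 CPM (SD, n = 3) in Rbfox2 KO. Gm21885 had few reads, at 0.421 to 0.561 CPM in WT and 0.157 to 0.314 CPM in Rbfox2 KO, where it was close to the floor. The median tested gene had its nearest neighbour at 0.223, so the nearest gene to Fam126a was farther than that. The profile of Fam126a is dominated by the genotype difference it was picked for, so closeness to it largely restates which genes were lower in Rbfox2 KO. Among 14653 other genes, Fam126b ranked 2028 by closeness, Pi4ka 3291, Ttc7b 7689, Efr3b 12565, Ttc7 13452 and Efr3a 13722.

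Beyond the complex, 68 genes in 7 lists around the same lipid were examined, and 60 were tested. Of these, 0 passed edgeR and 0 passed DESeq2, with 27 higher and 33 lower values and a median log2 fold change of -0.02. The other PI 4-kinases, which serve the Golgi and endosomes, were near 0: Pi4kb had a log2 fold change of 0.02 ± 0.10 (SE), Pi4k2a -0.01 ± 0.08 and Pi4k2b -0.03 ± 0.16. Tmem150a, whose product binds EFR3 at the plasma membrane, was at 37.2, 41.2, 46.5, 43.5 and 29.9 CPM in WT, against 52.3, 49.2 and 43.0 CPM in Rbfox2 KO. It did not pass the test (log2 fold change 0.28 ± 0.14, SE; edgeR adjusted p = 0.9999, unadjusted p = 0.0709).

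Named in each list are the genes with the smallest p. Among 9 tested genes of phosphatidylinositol synthesis and transfer, the transfer protein genes Pitpna and Pitpnm2 had log2 fold changes of 0.14 ± 0.10 and -0.24 ± 0.20 (SE), and Cds1, of CDP-diacylglycerol synthesis, 0.92 ± 0.44 on 4 to 24 reads. The kinases that add the next phosphate, Pip5k1c and Pip5k1a, had -0.14 ± 0.10 and 0.13 ± 0.12. Of 8 phosphatase genes, Sacm1l, which removes the phosphate that PI4KA adds, had 0.07 ± 0.13, Ocrl -0.09 ± 0.15 and Inpp5k -0.06 ± 0.10.

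Of 9 tested oxysterol-binding protein genes, 7 had lower values in Rbfox2 KO, beside 7291 of all 14654 tested genes. The median log2 fold change of the 9 was -0.05, and 0 of them passed the test. Osbpl5, a lipid exchanger driven by phosphatidylinositol 4-phosphate, was the sole gene of the 60 with an unadjusted p under 0.05, beside 4.74% of all tested genes. It was at 1.99, 2.65, 1.23, 1.89 and 1.63 CPM in WT, against 1.38, 0.864 and 1.37 CPM in Rbfox2 KO, on 22 to 82 reads. Its groups overlapped, and its log2 fold change of -0.63 ± 0.28 (SE) did not pass the test (edgeR adjusted p = 0.9999, unadjusted p = 0.0454). Osbpl11 and Osbpl9 had -0.16 ± 0.11 and -0.10 ± 0.09. Among 7 contact site tethers, Vapa had 0.08 ± 0.09, Gramd1c 0.09 ± 0.12 and Esyt2 -0.12 ± 0.15. Of 20 users of phosphatidylinositol 4,5-bisphosphate, the phospholipase C genes Plcd4 and Plcb4 had -0.87 ± 0.50 and 0.33 ± 0.22, and Pik3r1, a regulatory subunit of PI 3-kinase, -0.16 ± 0.12. The remaining 8 genes, with at most 12 reads in any library, were not tested: Pitpnm3, Pip5k1b, Pip5kl1, Inpp5j, Osbp2, Osbpl6, Osbpl10 and Esyt3.

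**Figure D5:**
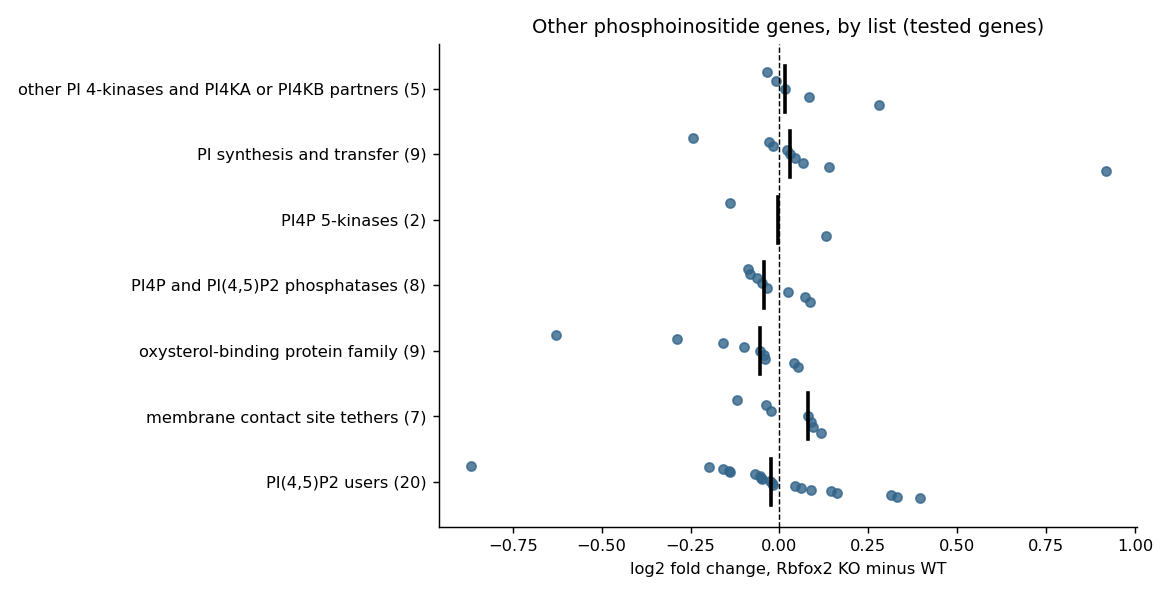
Log2 fold change of Rbfox2 KO over WT (x axis) for the 60 tested genes of 7 lists (rows, with the number tested), each point 1 gene and each black bar a list's median. All list medians lie close to 0, and the points farthest out, Cds1 at 0.92 and Plcd4 at -0.87, are genes with few reads.

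Other cell types of the tissue were read beside the complex. Nerve and myelin markers, 8 genes for cells in which FAM126A is known to matter, summed to 4.97 to 5.31 CPM in WT. In Rbfox2 KO they summed to 4.48 to 5.39 CPM. Only 4 of these 8 genes passed the filter on low counts. Sinusoidal endothelial markers summed to 164 to 193 CPM in WT and 165 to 187 CPM in Rbfox2 KO, and stellate cell and fibroblast markers to 183 to 244 and 174 to 301 CPM. Kupffer cell markers summed to 213 to 255 CPM in WT and 222 to 301 CPM in Rbfox2 KO. Of those 8 genes, only Marco, a scavenger receptor of macrophages named after its values were seen, had groups that did not overlap, with 9.01 to 13.4 CPM in WT and 18.5 to 30.9 CPM in Rbfox2 KO, beside 1.89% of tested genes with Rbfox2 KO wholly above WT. It was also the one marker of that list called by DESeq2, beside 0.412% of all genes in that test. With edgeR, 0 of the 8 were called, beside 0% of all tested genes. Lymphocyte markers summed to 3.95, 11.4, 2.42, 3.04 and 8.66 CPM in WT 1 to 5. In Rbfox2 KO 1 to 3 they summed to 3.79, 2.44 and 3.02 CPM. The Rbfox2 KO mean was 52.3% of a WT mean raised by WT 2 and WT 5, which were above all other livers. Cholangiocyte markers summed to 20.5 to 32.2 and 24.9 to 31.9 CPM, and erythrocyte markers to 858 to 1458 and 740 to 2105 CPM. The groups overlapped in each of these sums. No marker was at 0 in all libraries. The part of cell composition in the level of Fam126a was not tested.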

How the data were processed

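The deposited table holds raw read counts per Ensembl gene for 8 liver libraries. According to the study's methods and the submitters' processing notes, the authors demultiplexed reads with CASAVA, aligned them to GRCm38 with TopHat2 2.0.11 as strand-specific libraries and counted them with featureCounts. Strand use in counting and the treatment of reads with several alignments are not given in the sources used here. Symbols came from GENCODE M21 (45143 of 46078 genes). Groups came from the sample labels. Nothing says that equal sample numbers share a cage or batch. No 2 libraries of a group agreed within sampling noise (chi-square per degree of freedom 45.5 to 346).

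Genes were filtered with filterByExpr, leaving 14654, and edgeR 4.0.16 gave robust quasi-likelihood F tests (R 4.3.3; TMM, genotype only, Benjamini-Hochberg at 0.05). SE is the size of the log2 fold change over the square root of F. The procedure was tested on simulated counts. Alternatives were DESeq2 1.42.0, limma-voom (limma 3.58.1), other scalings and filters, a replicate block, and leaving out each library. Floors cover counting error only.

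The members and lists were chosen with earlier results of these data known. Named were the members, Rbfox2, Pi4kb, Pi4k2a, Pi4k2b and Tmem150a, the 3 genes with the smallest p in each other pathway list, and the 5 profiles nearest to Fam126a, of which 1 is not reported here. Length, motif-window and ratio alternatives were added after the data were seen. Splicing was not analysed here.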

Additional observations from a re-analysis of the deposited data

Results flagged for a closer look

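Of 49 values examined in the 5 WT livers, 5 had a sample far from the others, with a gap divided by the range above Dixon's critical value of 0.71. Chance alone marks about 1 in 20. WT 1 was the lowest for Sacm1l, at 30.0 CPM against 39.0 to 41.4 in the other WT livers (gap ratio 0.796), and for Pip5k1c, at 13.4 against 15.8 to 16.5 CPM (0.774). WT 1 also had the highest ratio of Fam126a to Ttc7b reads, at 1.07 against 0.794 to 0.869 (0.725). Its pancreatic exocrine marker sum was 16.2 CPM against 4.78 to 5.29 (0.956). WT 5 was the highest for Osbpl11, at 14.4 against 11.7 to 12.2 CPM (0.798).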

How the results depend on the processing

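The number of partners and of pathway genes past the threshold was 0 under all 16 alternatives, and over these the edgeR, DESeq2 or limma adjusted p of the partners ran from 0.675 to 0.99997. The number of genes past the threshold over the whole table was 59 with DESeq2 and 6 with no filter, and 0 in each run that left out 1 library. The log2 difference of Fam126a ran from -1.002 (without Rbfox2 KO 1) to -0.78 (library totals, a scaling that moved the median of all genes to 0.11). Rbfox2 passed with DESeq2 (log2 fold change -1.03, DESeq2 adjusted p = 0.00186) and in none of the other 15, where it ran from -1.30 to -0.85. Signs turned for members near 0: Ttc7 to -0.0065 without Rbfox2 KO 2 (0.123 without WT 3, its highest such value), and Ttc7b to 0.0729 with library totals, 0.00072 with no filter, 0.0465 without WT 5 and 0.0748 without Rbfox2 KO 1 (-0.080 without Rbfox2 KO 2, its lowest). The causes were not tested. With the sample number as a replicate block, Pi4ka turned to 0.0325 and Ttc7b to 0.0638, and 0 genes passed. Deviations of same-numbered libraries correlated at 0.163, 0.0484 and 0.170, and those of differently numbered WT and Rbfox2 KO libraries at -0.412 to 0.371. The same-numbered values lay inside that range and no label gives a pairing, so the numbers were not taken as pairs. TGCATG was in the last 500 bases of 15.1% and the last 2000 bases of 46.3% of transcripts. The planned search of introns was not run. Efr3b had 21 to 53 reads per library and ran from 0.08 to 0.39 with 1 library left out.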
